A study of Mus musculus with 2 samples.

Results

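Mesothelial-like stromal cells made up 64 of the 6777 filtered cells of KPCA.FSTKO omental tumors, or 0.944% (exact 95% interval 0.728 to 1.20%). They were defined by transcripts in each droplet barcode. A filtered barcode had mitochondrial transcripts under 20% of its unique molecular identifiers (UMIs, each counting 1 captured RNA molecule) and more than 200 but fewer than 8000 genes. A member then had at least 3 UMIs summed over the 8 genes Upk3b, Upk1b, Lrrn4, Gpm6a, Muc16, Rspo1, Cldn15 and Nkain4, with the smooth muscle genes Acta2 and Tagln under 0.1% of its UMIs and no UMI of the leukocyte gene Ptprc or the endothelial gene Pecam1. Of 78 filtered cells with 3 or more UMIs of the 8 genes, 8 were set aside for Acta2 and Tagln, 3 for Ptprc and 3 for Pecam1.

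The series asked how FSTL3, a secreted antagonist of activin, changed tumors of KPCA, a mouse model of high-grade serous ovarian carcinoma derived from fallopian tube epithelium. KPCA.FSTKO is the KPCA.C clone with the follistatin gene Fst deleted. KPCA.FSTKO_hFSTL3 is the same line, hence also without Fst, after transfection with human FSTL3 in pcDNA3.1 and selection of 1 stable clone. Both were grafted intraperitoneally into female C57BL/6J mice aged 12 to 16 weeks, and omental tumors were dissociated at day 10, with 4 tumors pooled into 1 library per genotype. The deletion was in the grafted cancer cells, so host stroma kept Fst. With 1 library per genotype and with cells chosen on the measured transcripts, all comparisons were descriptions without a test, and every interval covered counting error only. The libraries shared 12 barcodes, none of them a member.

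The mesothelium is a single layer of flat cells that lines the abdominal cavity and covers the omentum, the fatty fold to which ovarian cancer cells commonly spread. Mesothelial cells arise from mesoderm, keep the transcription factor WT1 into adult life, express keratins and mesothelin together with mesenchymal genes, and coat the serosa with a lubricating glycocalyx. After injury or in tumors they can lose keratins and gain fibroblast genes, a process called mesothelial-to-mesenchymal transition. They also secrete chemokines, complement proteins and antiproteases into the peritoneal fluid.

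The members carried mesothelial and fibroblast genes in the same cells. Of 64 members, 61 had at least 1 UMI of both Wt1 and the proteoglycan gene Dcn. Each member had Dcn, 63 had the collagen gene Col1a1 and 55 had the fibroblast receptor gene Pdgfra. Among classical mesothelial genes left out of the rule, Calb2, which encodes calretinin, had no UMI in any member, which at this depth allows a share of up to 4.69% of cells with a UMI and sets no limit on cells expressing the gene. A UMI of mesothelin (Msln) was found in 39 members and of at least 1 of Krt7, Krt8, Krt18 and Krt19 in 58. The background was not low: macrophage-like cells, which should lack these genes, had a UMI of Msln in 32.5% and of Krt19 in 37.6%, against 60.9% and 64.1% of members, at median depths of 13425 and 18460 UMIs. With each cell thinned to 1000 UMIs, Krt19 was found in 7.25% of macrophage-like cells (5.64 to 9.15%) and 18.75% of members (10.1 to 30.5%). Epithelial adhesion genes were rare, with Epcam in 4 members and Cdh1 in 3. The label therefore rests on the 8 rule genes and on Wt1, and the cells were stromal by their matrix genes. Wt1 itself was not particular to them: at 295 CPM (UMIs of a gene per 1000000 UMIs, summed over the cells of a group; interval 267 to 325) in members, it was also present at 194 CPM in the fibroblast-like and 155 CPM in the contractile stromal cells of the same tumors, against 0.831 CPM in cancer-like cells.

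Transcripts of other cell types were low in the summed members. The macrophage list reached 128 CPM, with 2 of its 10 genes at 0, against 21736 CPM in macrophage-like cells. The endothelial list stood at 34.4 CPM, the pericyte list at 35.8 CPM and the pancreatic acinar list at 72.4 CPM. T and NK cell genes totalled 0.716 CPM with 5 of 6 at 0, and the B cell and adipocyte lists were at 0 throughout. The cancer list was the highest of these at 358 CPM, against 3175 CPM in cancer-like cells, and ranged from 0 to 2503 CPM between members with a median of 178. Cancer-like cells were gated by Hmga2 and Igf2bp1 to Igf2bp3 at 0.05% of UMIs or more and the fibroblast genes under 0.1%. The former genes are on the cancer list, so this gap too was partly set by the gate. The part of transcripts of other cell types in the members' values was not tested. Scrublet, which scores barcodes for being doublets of 2 cells, called 90 of 6777 filtered barcodes and none of the members. Members had a median of 18460 UMIs (1391 to 57442), 4663 genes (632 to 7963) and 3.83% mitochondrial UMIs (0.575 to 18.7).

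Nkain4, which encodes a membrane protein that interacts with the sodium pump, was the rule gene found most often, with 186 UMIs in 53 members. Rspo1, which encodes a secreted amplifier of Wnt signalling, was found in 28, and the leucine-rich repeat gene Lrrn4 and the membrane glycoprotein gene Gpm6a in 27 each. Upk1b and Upk3b, both uroplakin genes, were found in 26 and 24 members, the claudin gene Cldn15 in 18, and the mucin gene Muc16 (CA125) in 5, with 18 of its 24 UMIs in a single cell. No rule gene was therefore shared by the whole group. Members held 0.982% of the library's UMIs but 93.1% of those of Lrrn4, 82.6% of Upk1b, 82.3% of Upk3b, 76.1% of Gpm6a and 57.6% of Nkain4, shares that the rule itself favoured.

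Most members passed the rule on few molecules. The sum over the rule genes was 3 to 143 UMIs with a median of 5, and 15 members had exactly 3 and 17 had 10 or more. Across the library 6486 filtered cells had 0 rule UMIs, 169 had 1 and 44 had 2. Across 64 members the share of UMIs from the rule genes was lower in deeper cells (Spearman's rho = -0.51, a description in which both measures share the cell's depth). Just outside the threshold, 32 cells with 2 rule UMIs that met the other criteria had Wt1 at 164 CPM, Dcn at 2695, Ptgis at 625 and the 4 keratin genes at 902. Just inside, the 15 cells with 3 had Wt1 at 238, Dcn at 3814, Ptgis at 777 and keratins at 194. The cells with 2 UMIs carried more of the cancer list, 959 against 414 CPM. The keratin level was thus higher just outside the threshold, where cancer-cell transcripts were also higher, whereas Wt1, Dcn and Ptgis were higher just inside.

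**Figure D1:**
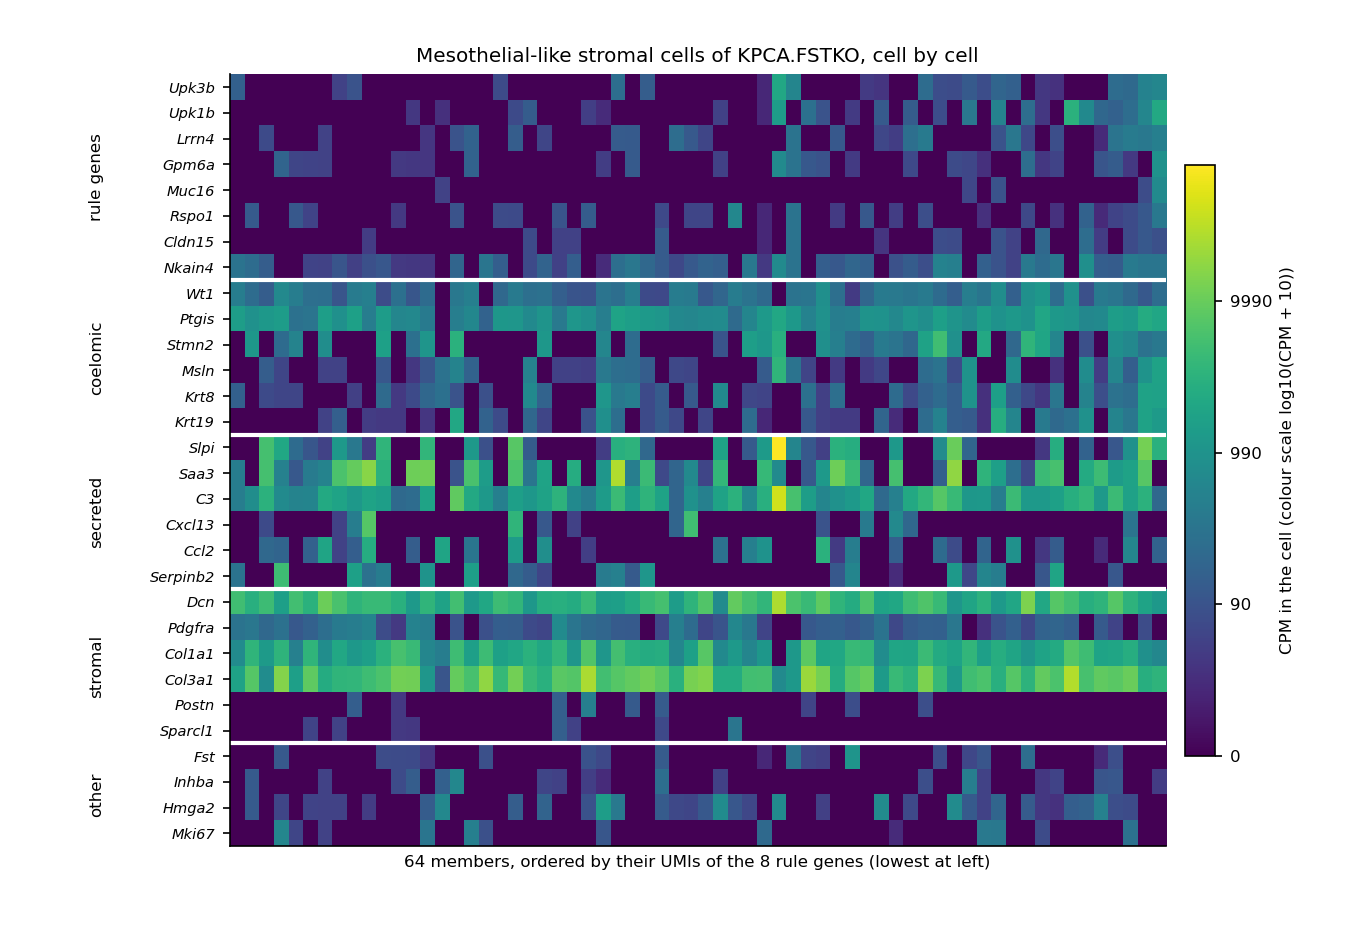
Heat map of selected genes (rows) in the 64 members (columns, ordered by their rule UMIs from left to right), coloured by CPM in the cell on a log scale. Ptgis, Dcn, Col1a1 and Wt1 were coloured in nearly all columns, whereas Slpi, Cxcl13, Upk3b and Upk1b were at 0 in many cells and high in a few, and Postn and Sparcl1 were at 0 in most.

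Among the genes found in nearly all members were Dcn, Ptgis, Adgrd1 and Wt1, whereas no single keratin gene was. A UMI of Krt7, Krt8, Krt18 or Krt19 was found in 58 members, as many as for Gata6. Ptgis, which encodes prostacyclin synthase, was found in 63 of 64 members, with a lowest value of 0, a median of 968 and a highest of 2491 CPM per cell. Wt1 (chr2:105126529-105173616, plus strand, GRCm38) was found in 61, with values from 0 to 1167 CPM and a median of 257. Dcn ran from 744 to 26600 CPM with a median of 3476, so that no member lacked it. The adhesion receptor gene Adgrd1 was found in 62 members. Gata6, a transcription factor gene of the coelomic lining, was found in 58 members (median 238 CPM), and Osr1, a gene of the same embryonic lineage, in 44 (median 114 CPM). The retinoic acid synthesis genes Aldh1a1 and Aldh1a2 were found in 52 and 50.

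Because detection depends on depth, the cells were also thinned to 1000 UMIs each. Wt1 was then found in 28.1% of members (17.6 to 40.8%), 18.5% of fibroblast-like and 9.52% of contractile cells, compared with 95.3, 69.2 and 81.0% before thinning. In macrophage-like cells, which should lack it, Wt1 was found in 0% after and 1.00% before thinning, at a median of 13425 UMIs. Slpi was found in 37.5% of thinned members, 3.08% of fibroblast-like and 2.38% of contractile cells, and in 5.80% of macrophage-like cells.

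Against the 6713 other filtered cells of KPCA.FSTKO, the 64 members showed a stromal profile with a complement and acute-phase component. A gene was counted as higher or lower when it had at least 100 UMIs over both groups and a CPM ratio of at least 2 in either direction. That count reached 1736 higher (12.1%) and 3345 lower (23.3%) of the 14329 genes with enough UMIs. The largest ratios outside the rule belonged to Sez6l (66.9, interval 55.9 to 80.0), Cxcl13 (60.8), the collagen VI gene Col6a5 (58.1), Sox6 (58.0) and Stmn2 (57.8, 52.9 to 63.1), of which Sez6l and Stmn2 are better known from neurons and Cxcl13 encodes the chemokine that attracts B cells. With each cell weighted equally, Cxcl13 was 18.9 times and Sez6l 43.3 times as high. Ptgis was 44.6 times (41.8 to 47.6) and Wt1 31.6 times (28.2 to 35.3) as high as in the other cells, and Wt1 19.4 times with cells weighted equally. Cdh3, the P-cadherin gene, stood 47.1 times higher, but 11.6 times without 3 members rich in keratin transcripts.

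Measured by concentration, 39.9% of the library's Sez6l UMIs lay in members, as did 37.6% of Cxcl13, 36.4% of Stmn2, 35.2% of the epidermal secreted gene Dmkn, 30.7% of Ptgis and 29.4% of Wt1os, a transcript antisense to Wt1. These 6 were the genes most like the rule genes by that measure, among those with at least 100 UMIs in members. Slpi (23.6%) and Wt1 (23.9%) were as concentrated as each other, while 0.371% of Msln UMIs lay in members and cancer-like cells had Msln at 546 CPM.

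By gene list, all 12 measured genes of the complement and innate defence list were higher in members than in the other cells, with a median log2 ratio of 4.17 against -0.05 over all genes. Saa3, an acute-phase apolipoprotein gene, was 21.0 times as high, and C3, the central complement component, 20.2 times. Slpi, which encodes a secreted inhibitor of leukocyte proteases, was 31.1 times as high. Of 15 chemokine and cytokine genes 11 were higher and 2 lower (Ccl8 and Il33). Of 10 coelomic transcription factor genes 6 were higher, among them Hand2 (32.0 times) and Osr1 (21.2 times), and 2 were lower, Nr2f1 and Gata4. Gata4 had 0 UMIs in members and was 3.35-fold lower with that 0 set to a floor of 3 counts. Of 17 other mesothelial genes 8 were higher and 7 lower, and the 7 included Msln (0.376 times, or 0.574 with cells weighted equally) and the keratin genes Krt7, Krt8, Krt18 and Krt19. Since the other cells were mostly cancer-like cells, these ratios compare members largely with the tumor epithelium.

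Upstream sequences of 4 genes are shown, because Slpi, Saa3 and C3 stand for the complement and innate list that was higher as a whole, and Upk3b is a rule gene. Bases before the RefSeq transcription start are given 5′ to 3′ on the gene's strand, with matches to a searched motif in capitals. The motifs searched on both strands were C/EBP (TTGCNNAA), NF-kB (GGGA and TTCC with any 2 bases between), WT1/EGR (GCGGGGGCG) and TEAD (GGAATG). For Saa3 the 24 bases next to the RefSeq start are left out, because a GENCODE transcript begins before them, and 226 bases are shown.
Upk3b, chr5:136038246-136038495, plus strand: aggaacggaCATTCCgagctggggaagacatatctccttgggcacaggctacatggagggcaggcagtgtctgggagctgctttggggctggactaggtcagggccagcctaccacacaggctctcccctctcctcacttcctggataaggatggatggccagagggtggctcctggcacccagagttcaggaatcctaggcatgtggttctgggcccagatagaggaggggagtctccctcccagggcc
Slpi, chr2:164356508-164356757, minus strand: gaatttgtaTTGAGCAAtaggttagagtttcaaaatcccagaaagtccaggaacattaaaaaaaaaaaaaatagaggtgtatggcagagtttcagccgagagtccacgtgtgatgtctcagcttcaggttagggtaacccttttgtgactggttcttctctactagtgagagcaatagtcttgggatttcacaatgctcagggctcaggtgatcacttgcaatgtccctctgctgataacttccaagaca
Saa3, chr7:46715701-46715926, minus strand: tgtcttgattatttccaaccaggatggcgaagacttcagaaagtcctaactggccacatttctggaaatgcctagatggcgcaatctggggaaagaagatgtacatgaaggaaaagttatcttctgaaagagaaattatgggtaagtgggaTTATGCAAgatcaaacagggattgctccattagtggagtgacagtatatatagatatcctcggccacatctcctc
C3, chr17:57228137-57228386, minus strand: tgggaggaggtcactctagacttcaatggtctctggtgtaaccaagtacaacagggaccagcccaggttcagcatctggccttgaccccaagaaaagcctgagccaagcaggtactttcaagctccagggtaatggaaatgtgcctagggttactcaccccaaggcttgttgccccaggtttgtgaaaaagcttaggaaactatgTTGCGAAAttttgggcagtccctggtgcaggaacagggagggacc
All coordinates are GRCm38. A C/EBP match began 241 bases before the start in Slpi, 99 in Saa3 and 45 in C3, and a TEAD match 241 bases before the start in Upk3b, with no overlap between motifs. No NF-kB or WT1/EGR match was present in these windows. Among 32851 promoter windows of 250 bases, 9.56% held the C/EBP letters, 12.6% TEAD, 1.21% NF-kB and 2.57% WT1/EGR. A match describes letters and not a bound site.

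**Figure D2:**
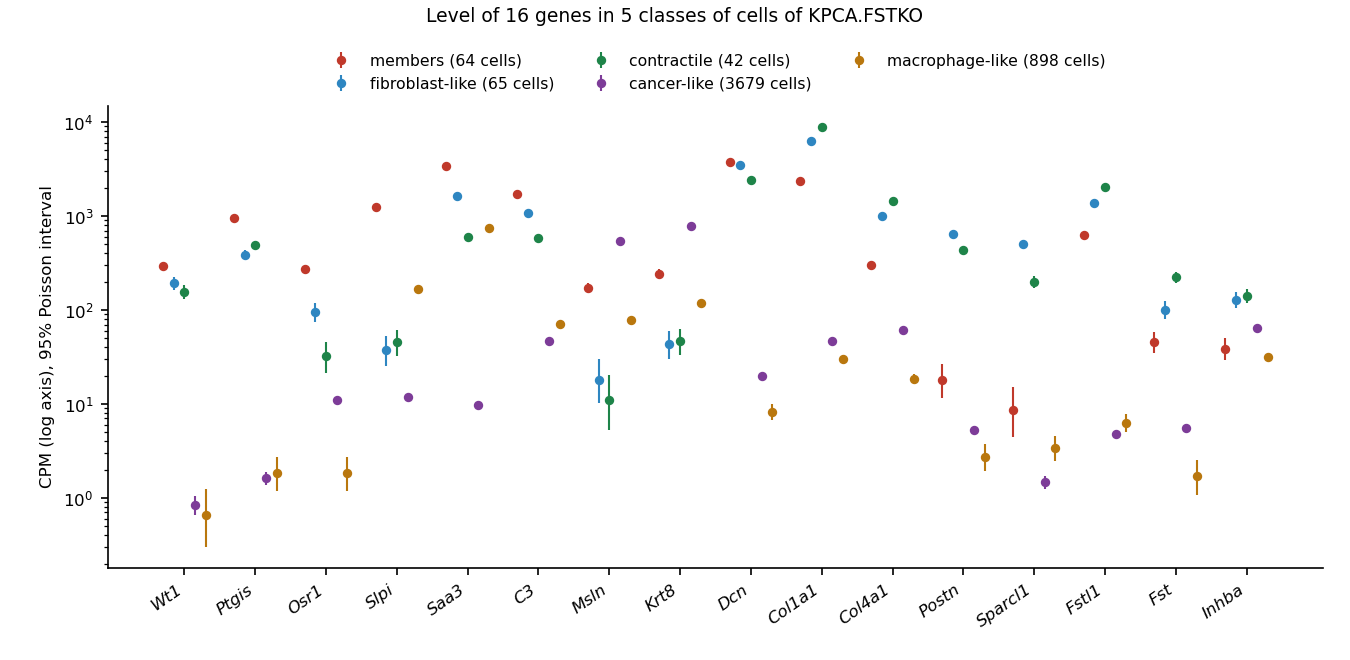
CPM on a log axis of selected genes in members, fibroblast-like, contractile, cancer-like and macrophage-like cells of KPCA.FSTKO, with points at the level over summed UMIs and bars for the exact 95% Poisson interval. Slpi was at 1247 CPM in members and 37.3 and 45.3 CPM in fibroblast-like and contractile cells, whereas the 3 stromal groups lay close together for Wt1 and Dcn and members were lowest of them for Col1a1, Postn, Sparcl1, Fst and Inhba.

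A closer comparison was with other stromal cells of the same library. Stromal cells were gated by 12 fibroblast genes at 0.2% of UMIs or more, after earlier values had been seen. Those with Acta2 and Tagln under 0.1% and no rule UMI were called fibroblast-like (65 cells, median 12044 UMIs), and those with 0.1% or more contractile (42 cells, median 21003.5 UMIs). Dcn, Sparcl1 and Postn are all among these 12 genes and thus helped define the comparators. Both comparators were limited in the cancer-cell genes Hmga2 and Igf2bp1 to Igf2bp3 while the members were not.

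Compared with fibroblast-like cells, members had more transcripts of the protease inhibitor gene Slpi, of mesothelin, of 3 keratin genes and of 3 MHC class II genes, and fewer of collagen genes. Enough UMIs were present for 3585 genes, of which 130 (3.63%) stood higher in members and 153 (4.27%) lower. Slpi was 33.4 times as high (23.4 to 49.3; 1247 against 37.3 CPM) and Msln 9.55 times (5.68 to 17.3; 173 against 18.1 CPM). The fibroblast-like cells had no rule UMI by definition, and the gap was smaller nearer the threshold. Against 39 stromal cells with 1 or 2 rule UMIs, gated alike, Msln was 6.58 times as high. Slpi was not among the 10 largest ratios there, the smallest of which was 6.28 (Hmga2). In the 32 cells just outside the threshold, with 2 rule UMIs, Slpi was at 443 CPM. Of 13 measured mesothelial genes outside the rule 7 were higher than in fibroblast-like cells and none lower, with a median log2 ratio of 1.69 against 0.05 over all genes. Besides Slpi and Msln they were Krt8 (5.63 times), Krt18 (3.76), Krt19 (3.66), the cortical linker gene Ezr (3.74) and the junction gene Cxadr (3.22). With cells weighted equally Krt18 was 2.40 times and Slpi 69.0 times as high. Ptgis was 2.46 times (2.17 to 2.78), Stmn2 2.6 times and Osr1 2.87 times as high. The whole coelomic transcription factor list summed to 1732 CPM in members and 1567 CPM in fibroblast-like cells. Wt1 was 1.52 times as high (1.27 to 1.84), under the ratio of 2. Dcn, whose level helped select the fibroblast-like cells, differed little at 1.08 times.

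Of 16 measured fibrillar and other matrix genes 9 were lower than in fibroblast-like cells and none was higher by the size rule (median log2 ratio -1.10). Col1a1 stood at 2384 against 6337 CPM, a ratio of 0.376 (0.360 to 0.393), and Col12a1 at a ratio of 0.183. Of 10 measured basement membrane genes 4 were lower and 1 higher. The collagen genes Col4a1 and Col4a2 were at ratios of 0.305 and 0.292, and Nid1 and Lamb1 were lower too, whereas the nidogen gene Nid2 was 2.54 times as high. Postn, which encodes periostin, stood at 17.9 against 643 CPM and Sparcl1 at 8.60 against 504 CPM. Of members only 9 had a Postn UMI and 8 a Sparcl1 UMI.

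Immune genes were mixed. Of 11 complement and innate genes, Slpi, Cfb (2.49 times, 1.98 to 3.17) and Saa3 (2.08 times, 1.96 to 2.21) were higher than in fibroblast-like cells and Lcn2 (0.415 times) was lower. C3 was 1.59 times as high, under the ratio of 2. Saa3 was 1.97 times as high with cells weighted equally. Of 7 measured antigen presentation genes 3 were higher and none lower, all 3 of MHC class II. Among these genes, which present antigen to helper T cells, Cd74 was 4.16 times, H2-Eb1 2.44 times and H2-Aa 2.09 times as high, the last 1.95 times without 2 doubted members. The macrophage list, which marks another class II source, was at 128 CPM in members and 105 CPM in fibroblast-like cells. The doubted members were 1 with few fibroblast transcripts and 1 with Hmga2 and Igf2bp transcripts at 0.1% of UMIs or more. Hmga2, the cancer-cell gene, was itself 4.27 times as high as in fibroblast-like cells, or 2.72 times without the doubted members, which held 91 of its 230 UMIs. The whole cancer list was at 358 CPM in members and 173 CPM in fibroblast-like cells, and its part in the keratin and Msln values was not tested. Protease inhibitor genes went both ways. Serpinb2, which encodes an inhibitor of plasminogen activators, was 3.81 times as high, whereas Serpine2, which encodes another serine protease inhibitor, was among the 10 genes with the smallest ratio at 48.0 against 558 CPM (0.0861, 0.0656 to 0.111). Cxcl13 was 1.25 times as high but 0.768 times among members with 5 or more rule UMIs.

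**Figure D3:**
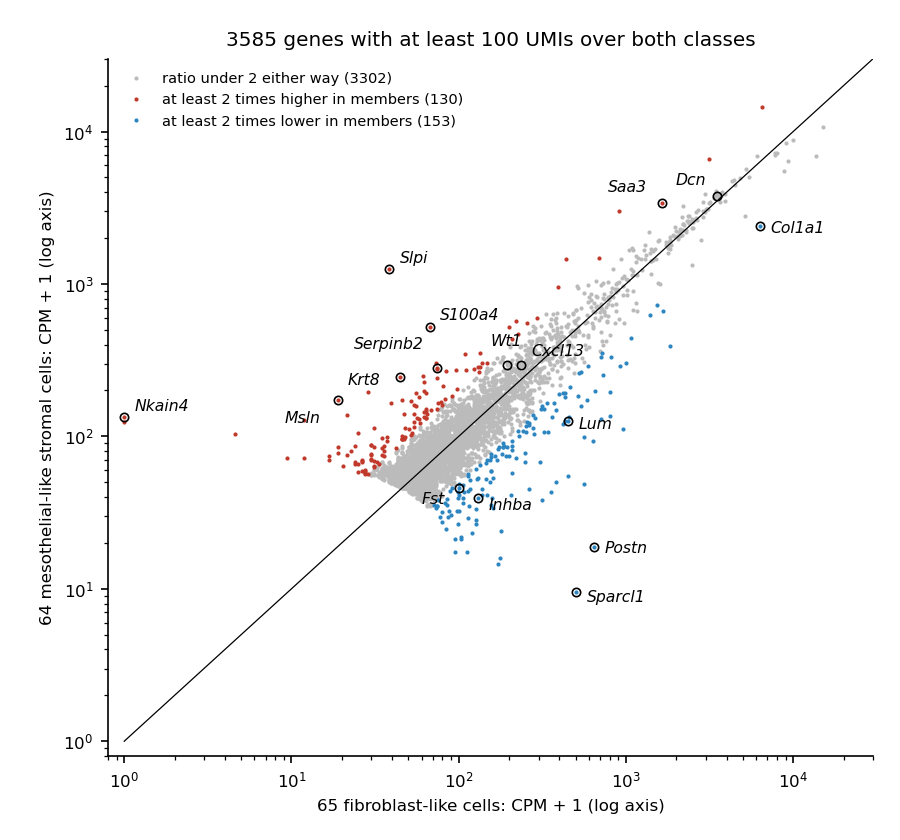
Level of each of 3585 genes with at least 100 UMIs over both groups, as CPM + 1 on log axes, in 65 fibroblast-like cells (horizontal) and 64 members (vertical), with the line of equal levels. Coloured points have a ratio of at least 2. Slpi, Msln and Serpinb2 lay above the line, Postn, Sparcl1 and Col1a1 below it, and Dcn on it.

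Against contractile stromal cells the members had less matrix and more of several secreted immune factors. The same 64 members enter both stromal comparisons. Here 178 genes (4.84% of 3676) stood higher and 190 (5.17%) lower, and of 16 matrix genes 14 were lower (median log2 ratio -1.35 against 0.04 over all genes). Col1a1 was at a ratio of 0.272 (0.261 to 0.283). Acta2, Tagln and Myl9, the last a myosin light chain gene outside the rule, were at ratios of 0.0488, 0.0252 and 0.0706, the first 2 being genes that the rule limited. Of 13 measured mesothelial genes outside the rule 10 were higher. Serpinb2 had 391 UMIs in members and none in contractile cells. With that 0 set to a floor of 3 counts it was 84.5-fold higher, and the lower limit of the exact interval was 68.4. Cxcl13 had 412 UMIs against 2, a ratio of 134 (36.8 to 1107). Osr1 was 8.52 times (5.84 to 12.9) and Stmn2 6.41 times as high. Of 7 measured coelomic transcription factor genes only Osr1 was higher, Nr2f2 was lower and 5 were neither. That list summed to 1732 CPM in members and 1379 CPM in contractile cells. Of 11 complement and innate genes 5 were higher, namely Slpi (27.5 times), Saa3 (5.63), Lcn2 (4.84), C3 (2.94) and Cfb (2.52). With cells weighted equally Slpi was 58.1, C3 4.52 and Lcn2 2.16 times as high, and with 5 or more rule UMIs required Cxcl13 was 82.1 times as high. Wt1 (1.91 times) and Ptgis (1.96 times) were under the ratio of 2.

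The activin pathway, which the series was built to perturb, was next compared. Activins are dimers of the inhibin beta subunits encoded by Inhba and Inhbb, follistatin and FSTL3 bind and neutralise them, and betaglycan, encoded by Tgfbr3, binds inhibin and TGF-beta at the cell surface. Members expressed the activin ligand and antagonist genes at low levels. Inhba was found in 20 members (54 UMIs, 38.7 CPM) and was at 129 CPM in fibroblast-like and 141 CPM in contractile cells, ratios of 0.30 (0.212 to 0.420) and 0.274. Inhbb stood at 20.1 CPM in members, 77.1 in fibroblast-like and 46.4 in contractile cells. For both ligand genes the members were the lowest of the 3 stromal groups.

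Host Fst was found in 20 members, with 28 of its 63 UMIs in 1 cell, and stood at 45.1 CPM (34.7 to 57.7). That compared with 99.99 CPM in fibroblast-like and 223 CPM in contractile cells, ratios of 0.451 (0.320 to 0.634) and 0.202 (0.150 to 0.270), the first of which was 0.569 among members with 5 or more rule UMIs. Cancer-like cells, whose Fst gene was targeted, had 5.57 CPM. Fstl3, the mouse gene, had 36 UMIs in 22 members (25.8 CPM), against 60.2 CPM in fibroblast-like and 88.4 CPM in contractile cells. Fstl1, which encodes a distant follistatin-like protein, was found in 61 members at 625 CPM, with ratios of 0.450 and 0.310. Tgfb1 was at ratios of 0.327 and 0.30. Tgfbr3 went the other way, at 345 CPM in members, 221 in fibroblast-like and 129 in contractile cells. Of 20 genes in the activin and TGF-beta list, 10 could be compared with fibroblast-like cells, where 5 were lower and none higher (median log2 ratio -0.95). With contractile cells 11 could be compared, and 5 were lower and 1, Tgfbr3, higher.

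Members and cancer-like cells (3679 cells) both had keratin transcripts, at different levels. In all 1572 genes (12.2% of 12865) stood higher in members and 2766 (21.5%) lower. Wt1 was 355 times as high (279 to 457), or 70.6 times with cells weighted equally, and Dcn 191 times. Dcn is among the fibroblast genes that the cancer-like gate held under 0.1% of UMIs, so its ratio was favoured by that gate. Krt8 was at 244 against 793 CPM, Krt19 at 225 against 1056 CPM and Msln at 173 against 546 CPM, and the 4 keratin ratios ran from 0.126 (Krt18) to 0.321 (Krt7). Hmga2 was at a ratio of 0.0878, Pax8 at 0.0725 and Cdh1 at 0.116, and without the doubted members Hmga2 was at 0.0559 and Cdh1 at 0.0409. Krt7 was at 0.206 without the 3 members rich in keratin. Of 10 measured cancer list genes 9 were lower in members and none higher. Hmga2 and Igf2bp1 to Igf2bp3 of that list defined the cancer-like cells, which favoured their low ratios.

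**Figure D4:**
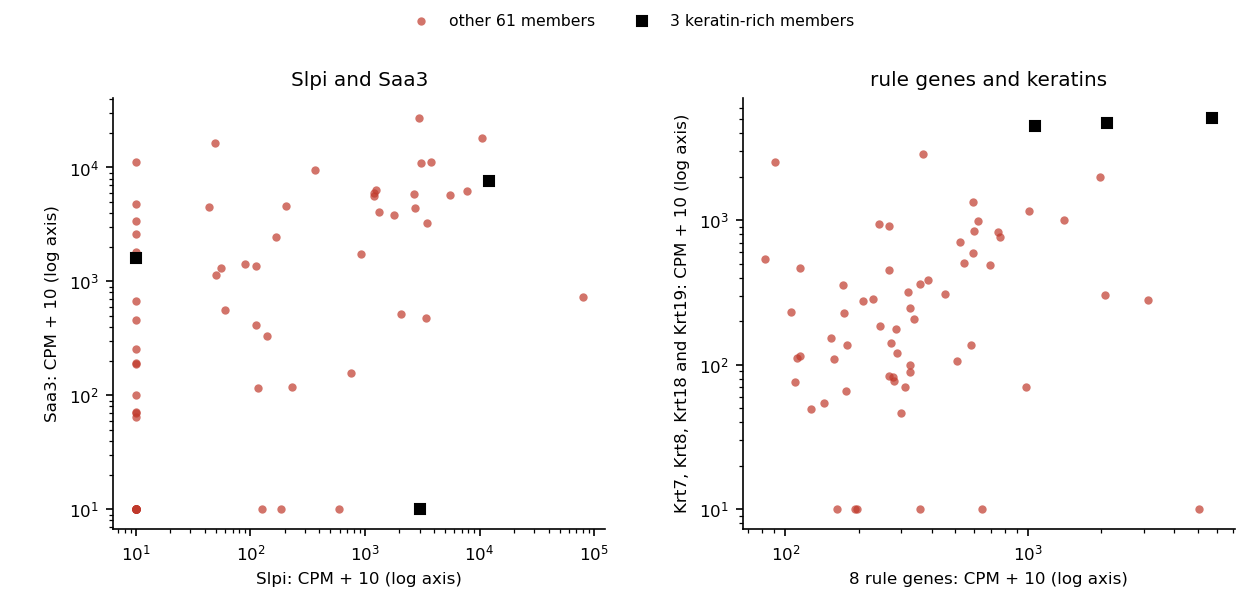
Each of the 64 members as a point, by Slpi and Saa3 (left) and by the 8 rule genes and the 4 keratin genes (right), as CPM + 10 on log axes, with the 3 keratin-rich members as squares. Cells with high Slpi mostly had high Saa3, and the keratin-rich members were also high for the rule genes.

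Keratins were uneven within the group. The 5 members with most keratin UMIs held 53.8% of the 888 found, and 3 members had at least 0.3% of their UMIs from the 4 genes. In these 3 Krt8 was 1709 CPM and Krt19 1756 CPM, against 173 and 151 CPM in the other 61. Summed over the 3, mesothelial surface genes were also high, with Msln at 1119 against 127 CPM, Upk1b at 1227 against 69.1 and Upk3b at 497 against 35.3. Slpi was at 6447 against 995 CPM, although 1 of the 3 had no UMI of Slpi or of Msln. Neither Epcam nor Cdh1 had a UMI in them, while the P-cadherin gene Cdh3 was at 761 against 11.3 CPM. Wt1 was alike at 280 and 296 CPM. Fibroblast genes were lower, with Dcn at 1476 against 3894 CPM and Pdgfra at 46.6 against 174. They held 21 of the 24 Muc16 UMIs. Since the split used keratins, these are descriptions of 3 cells. Over all 64 members keratins and Msln had a rank correlation of 0.48, and keratins and Dcn of -0.26.

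Slpi divided the members along another line. It had 20 or more UMIs in 19 members, 5 to 19 in 3 and under 5 in 42, and its per-cell value ran from 0 to 79799 CPM with a median of 90.5. The highest value came from the shallowest member, with 1391 UMIs, which also had C3 at 40978 CPM and no UMI of Wt1 or Col1a1. In the 19 Slpi-high members Saa3 was 5933 CPM, against 1925 in those with under 5 Slpi UMIs, and Serpinb2 534 against 97.6, Cxcl5 83.7 against 15.9 and Cfb 343 against 231. Some other secreted factors were not higher there, with Cxcl13 at 212 against 344 CPM, Ccl2 at 294 against 348, the complement gene C2 at 88.0 against 123 and Lcn2 at 60.1 against 73.7. The cell cycle genes Top2a and Mki67 were at 142 against 30.6 and 90.2 against 32.9 CPM. A Top2a UMI was found in 8 of the 19 and 8 of the 42 cells, and an Mki67 UMI in 5 and 7. Single cells of the 19 held 27 and 26 of 66 Top2a UMIs, and 12, 11 and 10 of 42 Mki67 UMIs. Likewise, 87 and 73 of the 249 Serpinb2 UMIs lay in single cells. In the 19 Slpi-high members Fn1, the fibronectin gene, was lower at 1185 against 2382 CPM, Col1a1 at 1992 against 2632 and Wt1 at 225 against 328. Median depths were 24960 and 18122.5 UMIs. Slpi and Saa3 had a rank correlation of 0.54 over 64 members, and Slpi and total UMIs of 0.01.

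A few cells also held most transcripts of other secreted factors. The 5 members with most Cxcl13 UMIs had 92.2% of its 412 UMIs, and 1 cell had 189. Ccl2, the monocyte attractant, was found in 29 members, and the top 5 had 66.7% of 454 UMIs. Cxcl13 was 469 CPM in the members with 3 or 4 rule UMIs, 332 with 5 to 9 and 21.95 with 10 or more, while Ptgis went from 753 through 861 to 1329 CPM and Wt1 from 235 through 286 to 385. Cell cycle transcripts were uneven as well, with 5 or more Mki67 and Top2a UMIs in 8 members and none in 42.

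The same rule in the KPCA.FSTKO_hFSTL3 library found 19 of 4041 filtered cells, or 0.470% (0.283 to 0.733%). That library was lower in cell number and higher in mitochondrial share (median 10.7%), and pancreatic acinar transcripts were at 8577 CPM in its other cells against 267 CPM in KPCA.FSTKO. The median other cell had the macrophage list at 3108 CPM against 91.2 in KPCA.FSTKO, and the erythroid list at 3263 against 0. The contractile list was at 343 against 0, while the cancer list was lower, at 775 against 1871. The part of such transcripts in the 19 cells was not tested. Of its 42 cells with 3 or more rule UMIs, 16 had a Ptprc UMI, 12 a Pecam1 UMI and 4 exceeded the limit on Acta2 and Tagln, some failing on more than 1 count. A single rule UMI was found in 626 of its cells, against 169 in the larger library. Shares are therefore given side by side, and genotype, library and pooled tumors cannot be told apart.

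The genes highest in the members of KPCA.FSTKO were also higher in the 19 cells. These 19 were chosen by the same rule and set against all other cells of their library. That choice itself favours stromal genes, so the overlap is a description and no independent check. Of the 20 genes with the largest ratio over other cells in KPCA.FSTKO, 15 had at least 100 UMIs in the KPCA.FSTKO_hFSTL3 comparison, and all 15 were at least 2 times as high in its 19 cells as in its own other cells, where 18.1% of 12893 genes were. They included Sez6l (42.0 times), Ptgis (15.04) and Stmn2 (14.9). Cxcl13, at 69.6 times, was also among them, but 321 of its 344 UMIs came from 1 of the 19 cells. All 12 measured complement and innate genes were also higher there, with a median log2 ratio of 3.60 against 0.31 over all genes. Wt1 had a UMI in 18 of the 19 cells, Ptgis and Dcn in 19, Nkain4 in 17 and Saa3 in 17, whereas Slpi was found in 12, Upk3b in 8 and Upk1b in 4, and Calb2 in none.

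Between the libraries, few genes passed the size rule. The 19 cells had 55 higher (1.69%) and 82 lower (2.52%) of 3249 genes, and 36 were higher and 106 lower after scaling by trimmed mean of M values (TMM). None of 11 measured complement and innate genes passed that rule. The rule genes are not compared, since cells of both libraries were chosen on them. Wt1 was 1.35 times (1.14 to 1.59), Ptgis 0.877 times and Col3a1 0.982 times as high. Slpi was 0.547 times, or 0.298 times with cells weighted equally, and Saa3 0.763 times as high. Stmn2, at a ratio of 0.286 (0.228 to 0.355), was lower.

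Of 7 measured antigen presentation genes 4 were higher, all of class II, with Cd74 at 3.33 times (2.93 to 3.79), H2-Aa at 3.73, H2-Eb1 at 2.96 and H2-Ab1 at 2.31. In the same cells the macrophage list was 539 CPM against 128, and its Lyz2 was 12 times as high, or 1.74 times without 4 doubted cells, 2 in each library. The part of macrophage transcripts in the class II values was not tested. All 4 measured acinar genes were also higher, led by Prss2 (87.9 times, 37.3 without the doubted cells) and Clps (85.3, then 25.3), beside the higher acinar level of that library. The haemoglobin gene Hbb-bs was 51.1 times as high, 1.16 times without the doubted cells.

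Genes of the same lists went both ways between the libraries. Of 11 chemokine and cytokine list genes 2 were higher in the 19 cells, Cxcl5 (2.24 times) and Cxcl13, and 1 was lower, Ccl2 (0.443), with a median log2 ratio of 0.64 against 0.04 over all genes. Cxcl2, outside that list, was at 0.193. Of 13 measured mesothelial genes outside the rule 2 were higher, Krt18 (2.34 times) and Cxcl13, and 1 was lower. Krt18 was 1.12 times as high without the doubted cells and 1.03 times with 5 or more rule UMIs required. Among fibrinolysis genes the urokinase receptor gene Plaur was 2.03 times as high, while Thbd (0.344) and Serpinb2 (0.419) were lower. The lower mesothelial gene was Msln (0.402, or 0.547 without the 3 keratin-rich members and 0.255 without the doubted cells). The carbonic anhydrase gene Car9 was at 0.184, the growth factor gene Vegfa at 0.442, the oxidoreductase gene Ero1l at 0.219 and the haem oxygenase gene Hmox1 at 0.223. With 5 or more rule UMIs required in both libraries Thbd was at 0.229, Serpinb2 at 0.831, Cxcl2 at 0.579 and Ccl2 at 0.583. Fst was 2.09 times and Cxcl13 2.07 times as high, but 42 of 53 Fst UMIs and 321 of 344 Cxcl13 UMIs came from 1 cell each, and with the deepest 5% of members left out Cxcl13 was 0.134 times as high. With 5 or more rule UMIs required, Fst was 0.362 times as high. Fstl3, the mouse gene, had 9 UMIs in the 19 cells and 36 in the 64, a ratio of 0.621 (0.263 to 1.31) that did not separate the libraries.

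**Figure D5:**
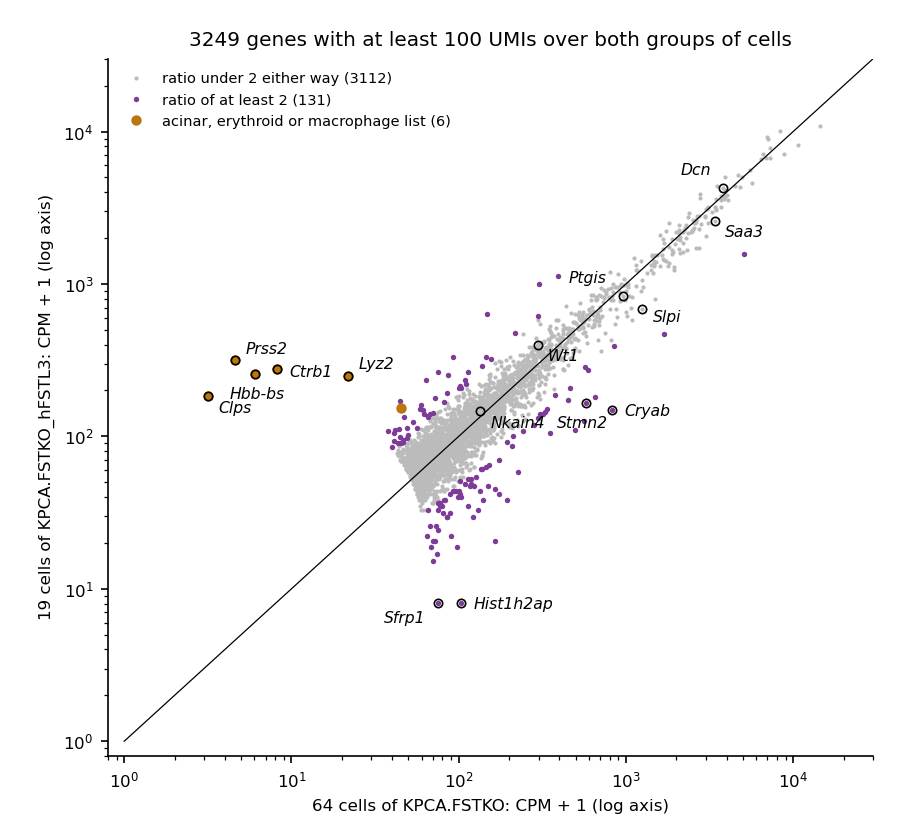
Level of each of 3249 genes with at least 100 UMIs over both groups, as CPM + 1 on log axes, in the 64 members of KPCA.FSTKO (horizontal) and the 19 cells of KPCA.FSTKO_hFSTL3 (vertical), with the line of equal levels. Most genes lay along the line, Wt1, Ptgis and Dcn among them, while Prss2, Clps, Ctrb1, Hbb-bs and Lyz2 of the acinar, erythroid and macrophage lists lay far above it and Stmn2 below it.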

How the data were processed

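Droplet libraries were made with the 10x Genomics 3' kit from dissociated omental tumors, 4 pooled per genotype. Per the labels and methods, the authors ran Cell Ranger 3.1.0 on mm10, while the matrix headers name 7.2.0; the deposited matrices hold raw UMI counts for 32285 genes. From those counts, barcodes were filtered and members chosen by the rule in the report. KPCA.FSTKO had 7582 barcodes (6777 filtered, median 17253 UMIs) and KPCA.FSTKO_hFSTL3 4244 (4041 filtered, median 15071 UMIs). UMIs were summed per group and scaled to CPM. Levels carry exact Poisson 95% intervals and ratios exact conditional binomial ones. A group at 0 was set to a floor of 3 counts. Sums and intervals were computed with scipy 1.17.1 and pandas 2.3.3 under Python 3.11.15; Scrublet through scanpy 1.11.5 marked doublets, which were kept, and in KPCA.FSTKO_hFSTL3 it called 1 of 4041 barcodes and so did not work there; TMM factors came from edgeR 4.0.16 in R 4.3.3. Counts were simulated for the fibroblast-like comparison, in which 3473 genes had enough UMIs and 200 were changed 4-fold. The size rule recovered 100% and called 0.0301% of the others. The simulation held counting error only and no differences between cells, so these rates do not carry over to the measured comparisons. Members, gene lists and comparator gates were chosen with earlier results of these data known. Named genes were the rule genes, listed genes, the 20 with the largest and 10 with the smallest ratio against other cells, and the 10 at each end of the stromal and library comparisons. Promoter sequences and coordinates came from RefSeq and GENCODE on GRCm38, the build of mm10.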

Additional observations from a re-analysis of the deposited data

How the results depend on the processing

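No paired analysis was possible because each genotype had 1 library. Of 8 alternatives to the member rule and the doubted-cell exclusion, 1 moved the number of members by over 1.5 times: at least 5 rule UMIs left 38. At least 2 rule UMIs gave 96 members against 64 as reported, at the edge of that limit. The number of genes past the size rule followed the thresholds. A ratio of 1.5, a ratio of 4 and a minimum of 20 UMIs gave 7693, 2728 and 8138 genes against other cells (5081 as reported), 872, 101 and 1328 against contractile (368), 828, 52 and 1190 against fibroblast-like (283), 6962, 1960 and 7025 against cancer-like (4338), and 475, 20 and 849 between libraries (137). No other setting moved these counts by over 1.5 times. Of 228 gene ratios, 5 changed direction in at least 1 setting and 89 moved by over 1.5 times. Between libraries these were Cxcl13 at 0.134 without the 5% of members with most UMIs, and Fst at 0.362, Hbb-bs at 0.869 and Igfbp3 at 0.625 with at least 5 rule UMIs. Top2a against fibroblast-like cells was at 0.703 with cells weighted equally. The cause was not tested. The exclusions of doubted cells and of keratin-rich members were chosen after seeing the data. Depth limits genes under 100 UMIs, including Fstl3, Inhbb and most rule genes.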

Other observations

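Several lists of secreted factors held genes that were higher in the members than in the other 6713 cells of KPCA.FSTKO, but the lists as a whole were not higher than in the other stromal cells. The Wnt list summed to 929 CPM in members, 258 in the other cells, 996 in fibroblast-like and 1390 in contractile cells. The retinoid list was at 1339, 601, 1618 and 2116 CPM in the same order, the fibrinolysis list at 2087, 654, 2711 and 2648, and the growth factor list at 933, 979, 1251 and 1020. Against the other cells, 12.1% of all 14329 genes with enough UMIs were higher in members and 23.3% lower. In that comparison, of 8 measured Wnt pathway genes 5 were higher and 1 lower. Sfrp2, which encodes a secreted Wnt antagonist, was 31.2 times as high (26.2 to 37.2), and the ligand gene Wnt4 was at 512 against 51.4 CPM. Axin2, a Wnt target gene, was 8.72 times as high, while the antagonist gene Dkk2 was at a ratio of 0.0728. Of 10 retinoid genes 6 were higher, with the retinoic acid synthesis genes Aldh1a1 and Aldh1a2 at 17.8 and 17.4 times and Aldh1a3 lower at 0.185 times. The members thus had the first 2 synthesis enzymes and little of the last.

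Of 10 fibrinolysis genes 7 were higher and 2 lower. Serpinb2 was 17.9 times and the thrombomodulin gene Thbd 6.82 times as high, alongside the activator gene Plat at 3.63 times. The tissue factor gene F3 was at a ratio of 0.358. Among 17 growth factor genes 5 were higher and 7 lower, led by Igf1 at 15.4 times (13.9 to 17). Of the hyaluronan synthase genes, which build the glycocalyx, Has1 was 6.08 times as high and Has2 was at a ratio of 0.237 on 4 UMIs. All of these genes were compared with a population made up mostly of cancer-like cells.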
